A study of Mus musculus with 21 samples.

Results

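Fibroblast matrix genes, here 10 genes for proteins of connective tissue matrix, were followed through 21 RNA-seq libraries of mouse embryos in 7 groups of 3. The genes were Postn, Tnc, Sparc, Dcn, Lum, Ogn, Dpt, Fbn1, Fbn2 and Eln. They were picked by symbol and not by a rule on measured values, but with earlier results of these data known. Each matched a single row in both deposited count tables, 10 of 24576 named genes. The group was named for where these genes are best known, and the libraries themselves were not fibroblast preparations.

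Mesenchymal cells lay down a matrix in which fibrillar collagens carry the load, small leucine-rich proteoglycans bind the collagen fibrils and limit their width, and elastic fibres form on a scaffold of fibrillin microfibrils. Matricellular proteins sit in the same matrix but mainly tune how cells attach to it, and they are typical of tissue that is growing or being remodelled. Cranial neural crest cells (CNCCs) of the pharyngeal arches give rise to the dermis, cartilage and other connective tissue of the face and neck, and the second pharyngeal arch (PA2) contributes to the pinna, the outer ear.

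The stage series held E10.5 PA2, E12.5 pinna and E14.5 pinna, all wild type (WT). Its cells came from Wnt1::Cre;ROSA-RFP embryos and were sorted by FACS on the reporter, so they are cells with a history of Wnt1 promoter activity, which marks crest progenitors, and not a pure fibroblast fraction. The tissue was dissociated with trypsin at E10.5 and E12.5 and with papain at E14.5, and the enzyme and the age cannot be told apart in the E14.5 values. The genotype series held PA2 and PA3 of E10.5 embryos that were either WT or homozygous for HIRE1del (HIRE1del/del), a CRISPR/Cas9 deletion of a region far from the Hoxa cluster on a mixed C57Bl/6J;CD1 background, with embryos pooled irrespective of sex. The labels call these cells CNCCs too, but the study describes micro-dissection of PA2 and PA3 for them and states no reporter or sorting. Replicates were described as independent biological samples.

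Library totals ran from 25814151 to 49058941 counts in the stage series and from 25804446 to 32210131 in the genotype series. Levels are given in CPM, the usual scaling of a count by the total of its library. Markers of red cells, which crest does not make, summed to at most 14.6 CPM in a stage library but to 1519 to 3308 CPM in the PA2 and 12329 to 24406 CPM in the PA3 libraries of the genotype series, which therefore held cells outside the crest. Epithelial markers summed to 184 to 204 CPM in WT PA2 and 407 to 524 CPM in WT PA3, against at most 42.6 CPM in a stage library. Hoxa2, the gene whose control by HIRE1 the study addressed, was at 73.4, 77.2 and 84.2 CPM in the WT PA2 libraries and 5.75, 4.75 and 7.09 CPM in the HIRE1del/del ones, which goes with their labels.

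The first question was how these genes moved from PA2 crest at E10.5 to pinna crest at E12.5 and E14.5. The E10.5 tissue was PA2 and the later tissue was the dissected pinna prominence. Age and dissected region therefore cannot be told apart in the first step or over the whole course. Each of the 10 rose at both steps. In edgeR's quasi-likelihood test with Benjamini-Hochberg adjustment, a gene being called at an adjusted p under 0.05, 10 of 10 were higher at E12.5 than at E10.5, where 35.0% of 13438 genes tested were called higher, and 10 of 10 were higher at E14.5 than at E12.5, where the share was 32.6%. No library of an earlier stage reached one of the next stage for any of the 10, as for 37.5% and 34.9% of all genes. Their median log2 change was 3.06 in the first step and 1.61 in the second, against 0.01 and −0.01 over all genes tested. Over the whole course, E14.5 against E10.5, the median was 5.73, with 10 of 10 called higher against 42.0% of all genes. When a log2 change of at least 1 was also asked for, 9 of 10 were called in the first step against 14.8% of all genes, 6 of 10 in the second against 12.2%, and 10 of 10 over the whole course against 23.1%. Ogn and Dpt were under 1 CPM in every E10.5 library. They passed the filter, a CPM of at least 1 in at least 2 libraries, only through their pinna libraries. A rise from E10.5 was thus built into how these genes entered the test, and the counts and medians above include them. The changes were unequal in size. From E10.5 to E14.5 Dcn rose 212-fold, Ogn 131-fold, Dpt 113-fold, Lum 112-fold and Eln 88.7-fold, whereas Fbn1 rose 4.24-fold and Fbn2 2.12-fold.

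**Figure D1:**
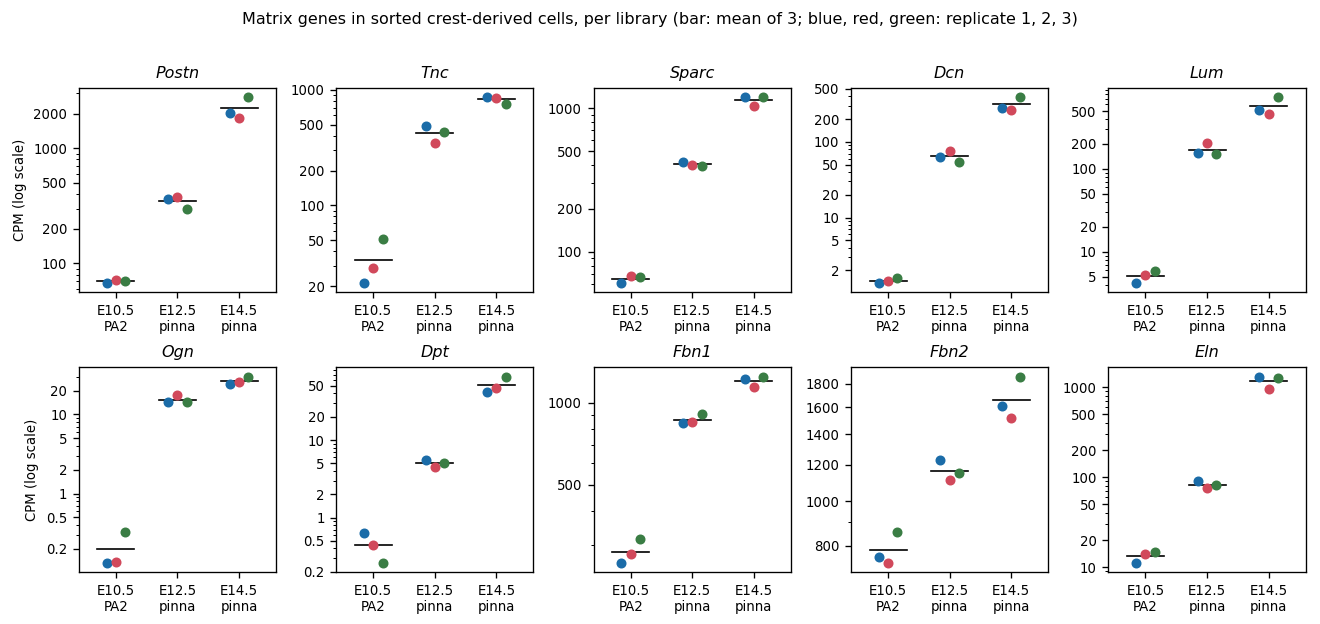
Level of each gene, in CPM on a log10 axis, in the 3 libraries of E10.5 PA2, E12.5 pinna and E14.5 pinna, with a point for each library and a bar at the group mean. Each gene climbs at both steps, and the levels reach from Ogn, at most 0.327 CPM at E10.5, to Postn, at least 1817 CPM at E14.5.

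Together the 10 genes took 0.118 to 0.140% of all counts in the E10.5 libraries, 0.360 to 0.383% at E12.5 and 0.788 to 0.980% at E14.5. As these are bulk samples, more cells that express a gene and more of its RNA per cell cannot be told apart. Markers of other cells moved over the same stages. Of 8 fibroblast markers, Col1a1, Col1a2 and Col3a1 among them, 7 rose from E10.5 to E14.5, and their summed level went from 3808 to 4747 CPM at E10.5 through 11810 to 12680 CPM at E12.5 to between 39806 and 53568 CPM at E14.5. The summed level of 8 cartilage markers went the other way, from 1847 to 1898 CPM through 855 to 901 CPM to between 580 and 600 CPM, with Matn1, a cartilage matrix gene, at 0 throughout. Of the 7 tested, 4 fell over the whole course, Sox9 and Col2a1 among them, and 2 rose, Acan and Col11a1. All 6 melanocyte markers rose, from 5.92 to 7.96 CPM in sum to between 348 and 399 CPM, and endothelial markers went from 7.16 to 10.2 CPM to between 112 and 175 CPM in sum. Only 2 of the 6 endothelial markers rose, Kdr and Esam, and Kdr alone held 141 CPM on average at E14.5. The part that these cells had in the rise of the matrix genes was not tested.

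Postn, Tnc and Sparc encode matricellular proteins. Periostin, from Postn, binds collagen and helps cross-link it, tenascin-C, from Tnc, loosens cell adhesion, and SPARC binds collagen as it is secreted and assembled. Postn lies on chromosome 3 (chr3:54361109-54391037, plus strand), Tnc on chromosome 4 (chr4:63959785-64047015, minus strand) and Sparc on chromosome 11 (chr11:55394500-55423183, minus strand), all in GRCm38. RefSeq gives 2 start sites each for Postn and Tnc, and a promoter feature is shared by 1 start of each, so the 250 bases before those starts are shown, 5′ to 3′ on the strand of the gene. Capitals mark matches to TATAAA or TATATAA, letters of the TATA box at which transcription starts are placed in some promoters. The Postn window is chr3:54360857-54361106 and the Tnc window is chr4:64046937-64047186.
Postn: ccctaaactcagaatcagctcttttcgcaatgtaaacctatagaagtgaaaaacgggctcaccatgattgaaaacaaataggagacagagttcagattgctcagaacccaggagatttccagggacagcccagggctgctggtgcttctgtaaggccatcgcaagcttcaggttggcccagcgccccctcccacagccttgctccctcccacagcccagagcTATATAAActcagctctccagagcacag
Tnc: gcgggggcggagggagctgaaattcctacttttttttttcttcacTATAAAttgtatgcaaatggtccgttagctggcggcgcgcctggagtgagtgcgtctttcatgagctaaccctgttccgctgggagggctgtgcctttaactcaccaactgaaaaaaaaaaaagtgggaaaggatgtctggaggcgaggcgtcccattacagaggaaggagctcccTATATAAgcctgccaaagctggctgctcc

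The longer form, TATATAA, begins at base −28 before the Postn start and at base −29 before the Tnc start, counted back from the first transcribed base. In Postn it overlaps a TATAAA that begins at −26, and Tnc holds a further TATAAA at −205. The other start of Postn has no match to either form, and the other start of Tnc has TATAAA, at −126, but no TATATAA. The Tnc windows overlap, and this TATAAA is the same bases as the one at −205. Of 32851 promoters of the same length in the RefSeq set, searched on both strands, 3.04% hold TATATAA and 12.4% hold TATAAA. Sequences were searched for 6 of the 10 genes, with 8 start sites. Chromosome 18, where Fbn2 lies, was left out of that search. In these windows the SMAD letters CAGACA, present in 17.1% of promoters, stood in Tnc and Sparc, and the TEAD letters GGAATG, present in 12.6%, stood in Ogn at −86. Ogn also held TATAAA at −227, far from its start. Letters of an AP-1 site (TGANTCA, 6.75% of promoters), a CArG box (1.47%), a Hox-Pbx site (TGATNNAT, 7.68%) and a Meis site (TGACAG, 15.9%) had no match there.

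Postn stood at 67.8, 72.2 and 70.4 CPM in E10.5 PA2, at 362, 380 and 298 CPM in E12.5 pinna and at 2046, 1817 and 2803 CPM in E14.5 pinna. The libraries of each stage lay apart from those of the next. Its log2 change was 2.31 (SE 0.148) in the first step and 2.68 (SE 0.149) in the second, with adjusted p of 1.61e-07 and 6.55e-08. For Tnc the E10.5 libraries gave 21.3, 28.6 and 51.5 CPM, the E12.5 libraries 485, 343 and 428 CPM and the E14.5 libraries 869, 857 and 747 CPM. The E10.5 libraries were the most uneven among themselves, and the stages still did not overlap. Tnc rose by 3.63 on the log2 scale (SE 0.270, adjusted p 4.75e-07) and then by 0.98 (SE 0.241, adjusted p 0.00405). Sparc was at 60.9, 67.5 and 67.4 CPM, then at 423, 399 and 396 CPM, then at 1198, 1029 and 1198 CPM. These values were tight within a stage, and the log2 changes of 2.64 (SE 0.0773) and 1.49 (SE 0.0733) had adjusted p of 7.08e-10 and 2.69e-08.

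Dcn, Lum and Ogn encode decorin, lumican and osteoglycin, small leucine-rich proteoglycans that coat collagen fibrils, and Dpt encodes dermatopontin, a small matrix protein that binds decorin. Dcn was at 1.37, 1.44 and 1.60 CPM in E10.5 PA2, at 63.6, 75.7 and 54.7 CPM in E12.5 pinna and at 283, 264 and 394 CPM in E14.5 pinna. Lum was at 4.22, 5.18 and 5.88 CPM, at 154, 208 and 152 CPM and at 509, 459 and 742 CPM. In both genes replicate 3 was the highest E14.5 library, and no stage overlapped another. Dcn rose by 5.45 (SE 0.216, adjusted p 4.70e-09) and by a further 2.28 (SE 0.152, adjusted p 2.69e-07) on the log2 scale. The steps of Lum were 5.07 (SE 0.226, adjusted p 1.15e-08) and 1.74 (SE 0.180, adjusted p 8.04e-06).

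Ogn was close to its detection limit in E10.5 PA2, at 0.134, 0.137 and 0.327 CPM, where a count of 3 corresponds to about 0.1 CPM. It reached 14.52, 17.4 and 14.4 CPM at E12.5 and only 24.4, 25.9 and 30.0 CPM at E14.5. This gave Ogn the largest first step of the 10 genes and a small second one, with log2 changes of 6.24 (SE 0.228, adjusted p 2.88e-09) and 0.79 (SE 0.129, adjusted p 2.44e-04). Dpt was also low at E10.5, with 0.636, 0.446 and 0.261 CPM, but climbed evenly to 5.53, 4.51 and 5.06 CPM and then to 41.2, 46.2 and 65.7 CPM. Its log2 changes were 3.48 (SE 0.304, adjusted p 1.65e-06) and 3.34 (SE 0.192, adjusted p 8.66e-08).

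Dcn, Lum and Ogn sit in clusters of like genes. Dcn (chr10:97479609-97518143) and Lum (chr10:97565128-97572703) lie 47.0 kb apart on the plus strand of chromosome 10, with Kera, for keratocan, 34.2 kb beyond Lum and Epyc, for epiphycan, 30.4 kb beyond Kera. Ogn (chr13:49608046-49624501, plus strand) follows Ecm2, Aspn and Omd on chromosome 13, with gaps of 11.7, 14.9 and 15.2 kb. Of the neighbours, Kera climbed at both steps as Dcn and Lum did, and Epyc did not. Kera had 1, 3 and 1 counts in the E10.5 libraries, 99, 142 and 94 at E12.5 and 429, 505 and 502 at E14.5, so the E12.5 level was 71.8 times that at E10.5, with a 95% counting interval from 30.4 to 222, and the E14.5 level was 2.47 times that at E12.5 (2.19 to 2.79). Epyc, best known from growth cartilage, had 7, 4 and 4 counts, then 45, 76 and 54, then 3, 3 and 19. It was lower at E14.5 than at E12.5, by −3.44 on the log2 scale (SE 0.538, adjusted p 1.83e-04).

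Beside Ogn, the order of the steps was the opposite. Aspn, for asporin, had 1, 2 and 6 counts at E10.5 and 32, 51 and 26 at E12.5, but 11499, 11521 and 14037 at E14.5, where its mean was 268 CPM. Its log2 change was 7.74 (SE 0.185, adjusted p 4.61e-10) in the second step, in which Ogn moved by 0.79. Ecm2 went from 6, 6 and 12 counts through 23, 21 and 35 to 967, 927 and 952, a log2 change of 6.24 (SE 0.233, adjusted p 6.30e-10) over the whole course. Omd, for osteomodulin, stayed at 11 counts or fewer in every stage library and was not tested. Counts of paralogs can be split by shared reads, and whether this touched the lowest values here was not tested.

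**Figure D2:**
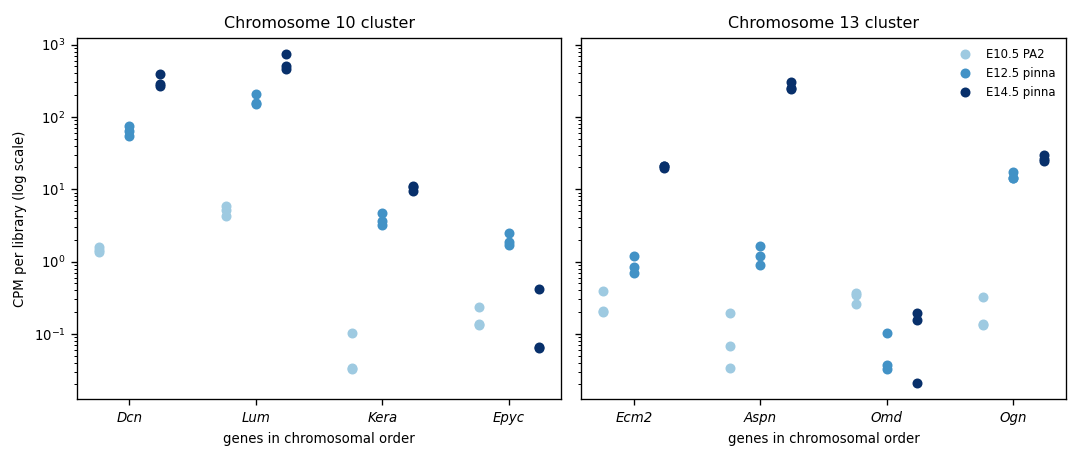
Level in CPM, on a log10 axis, of the genes of the Dcn-Lum and the Ogn cluster in chromosomal order, with a point for each of the 3 libraries of E10.5 PA2, E12.5 pinna and E14.5 pinna. Dcn, Lum and Kera climb at both steps, Ogn makes most of its climb by E12.5, and Aspn and Ecm2 make theirs by E14.5.

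Fbn1, Fbn2 and Eln encode the main proteins of elastic fibres: fibrillin-1 and fibrillin-2 build the microfibrils and elastin fills them. Fbn1 lies on chromosome 2 (chr2:125300594-125507993), Fbn2 on chromosome 18 (chr18:58008623-58210487) and Eln on chromosome 5 (chr5:134702593-134747323), all on the minus strand. Fbn1 was at 259, 278 and 315 CPM in E10.5 PA2, at 842, 851 and 911 CPM in E12.5 pinna and at 1220.1, 1141 and 1249 CPM in E14.5 pinna. Fbn2, at 757, 735 and 859 CPM, was already abundant at E10.5, and reached 1229, 1114 and 1150.2 CPM and then 1608, 1514 and 1866 CPM. Both fibrillin genes were thus abundant already at E10.5, and their stages did not overlap.

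The fibrillin steps were the smallest of the 10 genes over the whole course. Fbn1 rose by 1.61 (SE 0.0773, adjusted p 1.89e-08) and 0.47 (SE 0.0754, adjusted p 2.17e-04), and Fbn2 by 0.57 (SE 0.0866, adjusted p 1.24e-04) and 0.51 (SE 0.0865, adjusted p 3.14e-04), on the log2 scale. Per length, the ratio of Fbn1 to Fbn2 was 0.372, 0.411 and 0.400 in the E10.5 libraries, 0.746, 0.833 and 0.863 at E12.5 and 0.827, 0.821 and 0.730 at E14.5. Fibrillin-2 is the more embryonic of the pair, and its transcript stayed above that of Fbn1 in every library of the stage series. The ratio was higher in every E12.5 and E14.5 library than in any E10.5 library, while E12.5 and E14.5 overlapped.

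Eln took the opposite course from Ogn, with its larger step late. It was at 11.2, 14.0 and 14.8 CPM at E10.5, at 90.2, 76.4 and 82.0 CPM at E12.5 and at 1312, 969 and 1268 CPM at E14.5, with no overlap between stages. Its log2 changes were 2.63 (SE 0.137, adjusted p 3.43e-08) and 3.84 (SE 0.135, adjusted p 3.34e-09). Exons of 4 of the 10 genes overlap those of a gene on the other strand in the GENCODE M21 annotation, by 2442 bases for Fbn1, 267 for Eln, 176 for Tnc and 129 for Fbn2. The sources differ on whether the libraries kept strand, and without strand such reads cannot be assigned to either gene.

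To compare levels between genes, CPM were divided by exonic length in kilobases (RPKM). In E10.5 PA2, Fbn2 alone made up 50.6% of the summed RPKM of the 10 genes at a mean of 59.3 RPKM, followed by Fbn1 at 23.4, Sparc at 17.2 and Postn at 8.06 RPKM, while Ogn was last at 0.08 RPKM. By E14.5 the order had turned, and Sparc led at 301 RPKM, followed by Postn at 255, Lum at 233 and Eln at 209 RPKM, with Fbn2 at 126 RPKM and 8.86% of the sum. At E12.5 Sparc (107 RPKM) had already passed Fbn2 (88.1), Fbn1 (71.6) and Lum (69.9). Among all 13438 genes ranked by RPKM, Sparc was number 46, Postn 60, Lum 67 and Eln 77 in E14.5 pinna, and Ogn was number 5318. With SDs of 25.8, 59.3, 61.7 and 32.9 RPKM (n = 3), neighbours among these 4 leaders did not differ beyond their spread, and neither did Tnc (106) and Fbn1 (99.2 RPKM) below them.

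Which step was the larger was asked after the values had been seen. The measure was the log2 change from E12.5 to E14.5 minus that from E10.5 to E12.5. The earlier step also spans a change of dissected tissue, from PA2 to pinna. Only Eln was called with the later step larger, by 1.20 (SE 0.223, adjusted p 0.00128), 1 of 10 genes against 20.5% of all genes tested. For 6 of 10 the earlier step was larger, against 22.9% of all genes. The difference was −5.45 (SE 0.311) for Ogn, −3.33 (SE 0.318) for Lum, −3.18 (SE 0.304) for Dcn, −2.65 (SE 0.405) for Tnc, −1.15 (SE 0.123) for Sparc and −1.14 (SE 0.128) for Fbn1. Postn, Dpt and Fbn2 were not called, with differences of 0.38 (95% interval −0.16 to 0.92), −0.14 (−1.08 to 0.80) and −0.06 (−0.39 to 0.27). Scaling by total counts alone shifted the median of all genes by −0.13 in the second step and by −0.19 in this difference. It turned the split of called genes from 4382 higher and 4442 lower to 3517 and 5613 in the second step, and from 2760 and 3076 to 1849 and 4314 in the difference.

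**Figure D3:**
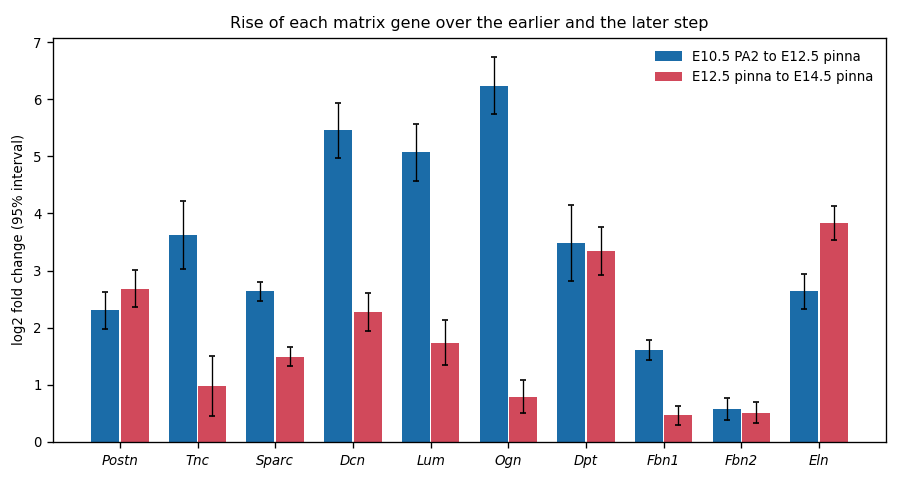
Log2 change of each gene from E10.5 PA2 to E12.5 pinna and from E12.5 to E14.5 pinna, as bars from 0 with 95% intervals from the edgeR fit. The earlier bar is far the taller for Ogn, Dcn and Lum, the later bar is the taller for Eln, and the 2 bars are near each other for Postn, Dpt and Fbn2.

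Other genes of the same matrix were counted from lists chosen by function. Over the whole course 42.0% of all genes tested were called higher and 40.0% lower, beside which the counts stand. All 10 collagen genes of connective tissue rose at each step, with medians of 2.98 and 2.02 on the log2 scale. Col6a1, for a chain of the collagen that anchors cells, rose by 6.76 (SE 0.161) from E10.5 to E14.5, Col14a1, for a collagen of fibril surfaces, by 6.28 (SE 0.103) and Col6a2 by 6.01 (SE 0.195). Of 10 other small leucine-rich proteoglycans tested, 8 rose over the whole course and 0 fell. Of 18 elastic fibre genes tested, 17 rose and 1 fell. Among them were Lox, the cross-linking enzyme of elastin and collagen, by 3.67 (SE 0.147), Emilin3 by 4.49 (SE 0.157) and, falling, Emilin2 by −0.90 (SE 0.0869). Ltbp2, which binds microfibrils, had 5, 3 and 0 counts at E10.5 and 851, 479 and 2526 at E14.5. Efemp1, for fibulin-3, was lower at E14.5 than at E12.5, by −1.75 (SE 0.156).

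Of the list of matricellular and adhesive glycoproteins, 9 of 18 genes tested rose over the whole course and 5 fell. The share that rose was near the 42.0% of all genes. Thbs2, for thrombospondin-2, rose by 6.73 (SE 0.200), Ccn4 by 4.88 (SE 0.0858) and Smoc2 by 4.41 (SE 0.239), whereas Smoc1 fell by 2.41 (SE 0.145), Tgfbi by 1.16 (SE 0.0989) and Nid2 by 1.07 (SE 0.122). Ccn2, a gene that responds to stretch and TGF-beta, was lower at E12.5 than at E10.5, by −3.36 (SE 0.154). Tnr, the tenascin of neural tissue, had 0, 2 and 1 counts at E10.5, 93, 142 and 142 at E12.5 and 0, 3 and 8 at E14.5. Neuronal markers summed to 47.5 to 61.8 CPM, 125 to 174 CPM and 7.25 to 13.1 CPM at these stages, highest where Tnr was. That sum was carried by Nefl, at 114 CPM on average at E12.5: from E10.5 to E12.5 Nefl and Stmn2 rose, and the other 3 of 5 markers tested fell. The part of such cells in Tnr was not tested.

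Among enzymes that process collagen, 11 of 15 rose and 4 fell over the whole course. Adamts2 and Adamts14, which trim procollagen, rose by 3.84 (SE 0.171) and 3.83 (SE 0.160), while the procollagen C-proteinase enhancer genes Pcolce2 and Pcolce fell by 2.79 (SE 0.232) and 0.70 (SE 0.128) and Plod2 fell by 0.50 (SE 0.106). P4ha3, for a prolyl hydroxylase subunit, was higher at E12.5 than at E10.5 by 3.42 (SE 0.424), and Adamts3 was lower at E14.5 than at E12.5 by −1.10 (SE 0.131). Plod1 was called at 3.59 (SE 1.45, adjusted p 0.0383), yet its E14.5 libraries held 21.7, 0.378 and 13.5 CPM against 0.167, 0.824 and 1.93 CPM at E10.5. That call was lost in 7 of 14 alternatives, DESeq2, limma-voom and the replicate block among them, and without E10.5 PA2 replicate 1 or 2 or E14.5 pinna replicate 1 or 3, with an adjusted p of up to 0.290.

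Of 13 matrix proteases and inhibitors tested, 10 rose and 1 fell. Timp3, a matrix-bound inhibitor of metalloproteases, rose by 2.68 (SE 0.0813), Adam12 by 2.42 (SE 0.179) and Mmp23 by 2.39 (SE 0.178), and Mmp9 fell by 1.63 (SE 0.323). Of 15 matrix receptors tested, 12 rose and 2 fell. Cd44, the hyaluronan receptor, rose by 5.72 (SE 0.161), and the integrin genes Itgb3 and Itga8 by 3.51 (SE 0.149) and 3.49 (SE 0.0750). Sdc1 fell by 0.30 (SE 0.0680) and Mrc2, a collagen uptake receptor, by 0.31 (SE 0.0779). Itga1, for a collagen receptor subunit, was lower at E12.5 than at E10.5 by −0.51 (SE 0.182, adjusted p 0.0274) and higher at E14.5 than at E12.5 by 2.01 (SE 0.177). Its first call was lost in limma-voom and without E10.5 PA2 replicate 1 or 3 or any E12.5 pinna replicate, with an adjusted p of up to 0.121.

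The genotype series asked whether loss of HIRE1 changed these genes at E10.5. Dpt stayed below the filter, so 9 of 10 genes were tested. None of the 9 was called by edgeR in PA2, where 0.438% of 14383 genes tested were called and 1233 had an unadjusted p under 0.05, nor in PA3, where 0.216% were called and 1400 had an unadjusted p under 0.05. DESeq2 and limma-voom also called 0 of 9 in each arch. Of all 14383 genes, DESeq2 called 164 in PA2 and 93 in PA3, and limma-voom called 68 and 39. The median log2 change of the 9 genes was −0.15 in PA2 and −0.10 in PA3, against −0.01 and 0.00 over all genes tested. Together the 10 genes took 0.0769 to 0.0976% of counts in WT PA2 and 0.0782 to 0.0829% in HIRE1del/del PA2, and 0.0913 to 0.102% and 0.0856 to 0.0995% in PA3.

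**Figure D4:**
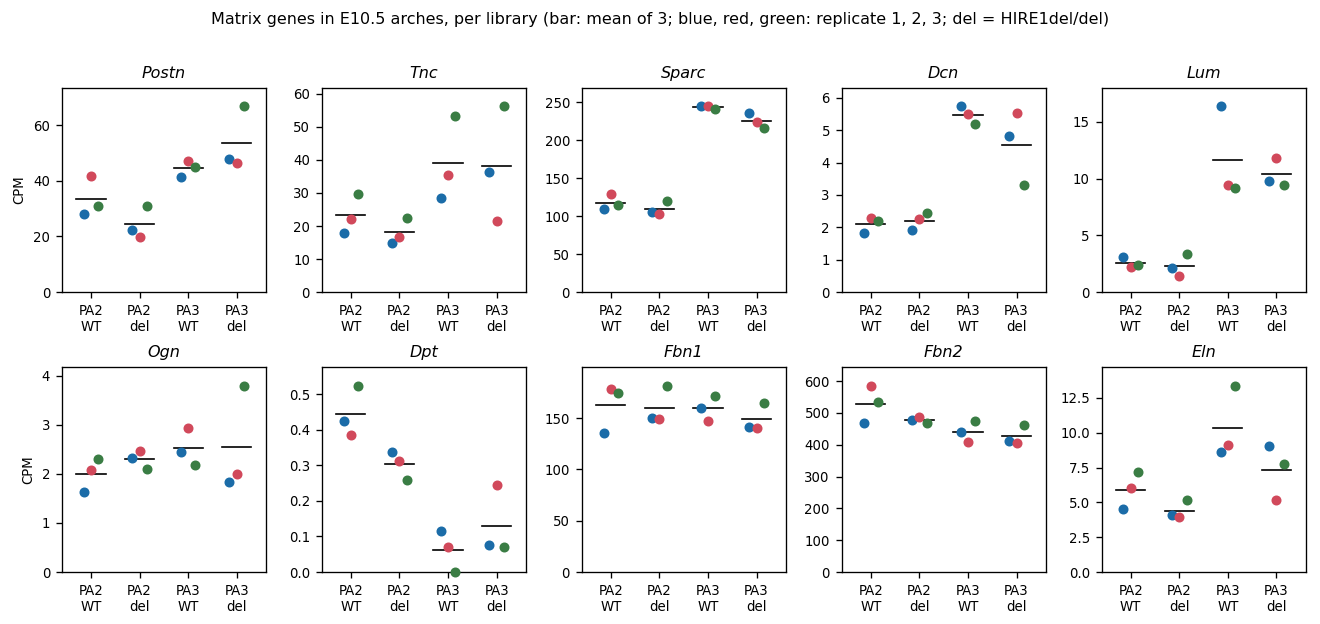
Level of each gene, in CPM on a linear axis from 0, in the 3 libraries of WT PA2, HIRE1del/del PA2, WT PA3 and HIRE1del/del PA3 at E10.5, with a point for each library and a bar at the group mean. WT and HIRE1del/del libraries overlap for most genes, and Lum, Dcn and Sparc sit higher in PA3 than in PA2 in both genotypes.

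Postn had the lowest unadjusted p of the 9 in PA2. It was at 28.0, 41.6 and 30.8 CPM in WT and at 22.5, 19.7 and 31.1 CPM in HIRE1del/del PA2. In PA3 it was at 41.4, 47.2 and 44.8 CPM in WT and at 47.7, 46.2 and 66.8 CPM in HIRE1del/del. The genotypes overlapped in both arches, and the log2 changes had opposite signs, −0.45 in PA2 (SE 0.185, p 0.0282, adjusted p 0.505) and 0.27 in PA3 (SE 0.179, adjusted p 0.663). The difference between the arches was −0.72 (SE 0.257, p 0.0143, adjusted p 0.887) in the edgeR test. That test called 0.0487% of all genes and 0 of the 9, with 794 genes at an unadjusted p under 0.05. DESeq2 called 27 of all genes and limma-voom 7, and each called 0 of the 9. With PA2 and PA3 libraries of the same genotype and number treated as paired, since they deviated together, this replicate block by embryo pool gave −0.71 with an adjusted p of 0.0220, and Postn was then 1 of 9 called against 0.181% of all genes. No label states that the arches came from the same embryos, so the pairing was an assumption.

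Eln had the lowest unadjusted p in PA3, at 8.61, 9.15 and 13.4 CPM in WT and 9.05, 5.18 and 7.79 CPM in HIRE1del/del, a log2 change of −0.50 (95% interval −0.99 to −0.01, adjusted p 0.504). In PA2 it was at 4.49, 5.997 and 7.17 CPM against 4.06, 3.98 and 5.14 CPM, a change of −0.43 (−0.95 to 0.09, adjusted p 0.676). The genotypes overlapped in each arch. Sparc in PA3 was the only 1 of the 9 whose libraries lay apart, at 245, 245 and 241 CPM in WT and 236, 224 and 217 CPM in HIRE1del/del, as did 7.38% of all genes in that direction. In PA2 the libraries lay apart for 0 of the 9, and for 7.52% of all genes with HIRE1del/del lower. Its log2 change was −0.11 (−0.26 to 0.03, adjusted p 0.622). For the other 6 genes the changes ran from −0.37 for Tnc to 0.19 for Ogn in PA2, and from −0.27 for Dcn to 0.01 for Ogn in PA3.

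How far a change could have gone unseen differed between genes. The 95% interval of the PA2 change was −0.25 to 0.04 for Sparc, −0.32 to 0.02 for Fbn2 and −0.26 to 0.21 for Fbn1. It was wider at −0.37 to 0.52 for Dcn, −0.39 to 0.78 for Ogn, −0.80 to 0.51 for Lum and −1.05 to 0.31 for Tnc. Among the other matrix genes of the lists, Col5a1 was the only one called by genotype. This gene, for the collagen that starts fibrils, was at 284 ± 21.7 CPM in WT and 200.03 ± 20.9 CPM in HIRE1del/del PA2 (SD, n = 3), a change of −0.50 (SE 0.0713, adjusted p 0.00458), and at 342 ± 5.93 and 255 ± 6.26 CPM in PA3, a change of −0.42 (SE 0.0710, adjusted p 0.0318). The PA3 call was lost when any of the 6 PA3 libraries was left out, with an adjusted p of up to 0.149.

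The arches themselves differed. In WT, 4 of 9 genes were higher in PA3 than in PA2, where 19.1% of all genes were called higher, and 1 was lower, against 17.4%. Those 4 were also the genes whose PA3 libraries all lay above the PA2 ones, as did 25.6% of all genes, and 3 of them passed with a log2 difference of at least 1, against 7.39%. Lum was at 3.10, 2.21 and 2.43 CPM in PA2 and 16.4, 9.43 and 9.20 CPM in PA3, a log2 difference of 2.18 (SE 0.280, adjusted p 6.52e-05). Dcn was at 1.82, 2.28 and 2.19 CPM against 5.74, 5.50 and 5.18 CPM, a difference of 1.38 (SE 0.195, adjusted p 1.45e-04). The arches did not overlap for either proteoglycan. Sparc was at 109.9, 129 and 114 CPM against 245, 245 and 241 CPM, a difference of 1.05 (SE 0.0681, adjusted p 3.63e-07). Eln was higher by 0.81 (SE 0.230, adjusted p 0.0141), with no overlap between the values given above, but its call was lost without WT PA2 replicate 1 or WT PA3 replicate 3, with an adjusted p of up to 0.0735. Fbn2 was lower by −0.27 (SE 0.0790, adjusted p 0.0184), at 469, 585 and 534 CPM in PA2 and 439.5, 407 and 474 CPM in PA3, which overlap. Its call was lost without WT PA2 replicate 2 or 3 or WT PA3 replicate 2, with an adjusted p of up to 0.0853.

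Postn and Tnc in WT were near the threshold. Postn differed by 0.41 (SE 0.181, adjusted p 0.0941) and Tnc, at 18.0, 22.2 and 29.6 CPM in PA2 and 28.6, 35.5 and 53.2 CPM in PA3, by 0.75 (SE 0.309, adjusted p 0.0744). Both overlapped between arches. With the replicate block by embryo pool both were called, Postn at an adjusted p of 8.28e-04, so that 6 of 9 were higher against 21.9% of all genes. Postn was also called without WT PA2 replicate 2, Tnc without WT PA3 replicate 1 and both in a fit on these 6 libraries alone. Fbn1 (−0.03, 95% interval −0.26 to 0.20) and Ogn (0.33, −0.25 to 0.90) were not called under either fit.

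In HIRE1del/del embryos 6 of 9 genes were higher in PA3, against 18.7% of all genes, and 0 were lower, against 14.7%. For 5 of the 9 all PA3 libraries lay above the PA2 ones, against 23.8% of all genes. For 1 of the 9 they all lay below, against 21.3% of all genes. This was Fbn2, at 478, 488 and 469 CPM in PA2 and 411, 405 and 463 CPM in PA3, and it was not called. Lum was at 2.14, 1.44 and 3.36 CPM in PA2 and 9.80, 11.8 and 9.46 CPM in PA3, a difference of 2.16 (SE 0.285, adjusted p 8.81e-05). Dcn was at 1.92, 2.26 and 2.44 CPM against 4.83, 5.53 and 3.30 CPM, a difference of 1.04 (SE 0.197, adjusted p 0.00134). Sparc, at 106, 103 and 120.1 CPM in PA2, differed by 1.04 (SE 0.0683, adjusted p 3.62e-07). Postn, whose HIRE1del/del libraries did not overlap between arches, was higher in PA3 by 1.13 (SE 0.184, adjusted p 4.56e-04). Eln differed by 0.74 (SE 0.239, adjusted p 0.0293) with its highest PA2 library just under its lowest PA3 library. That call was lost in limma-voom and without HIRE1del/del PA2 replicate 1 or 2 or HIRE1del/del PA3 replicate 1 or 3, with an adjusted p of up to 0.132. Tnc, at 15.0, 16.6 and 22.5 CPM against 36.4, 21.5 and 56.2 CPM, overlapped and differed by 1.08 (SE 0.315, adjusted p 0.0181). It was not called without HIRE1del/del PA2 replicate 1 or 2 or HIRE1del/del PA3 replicate 3, with an adjusted p of up to 0.0927.

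**Figure D5:**
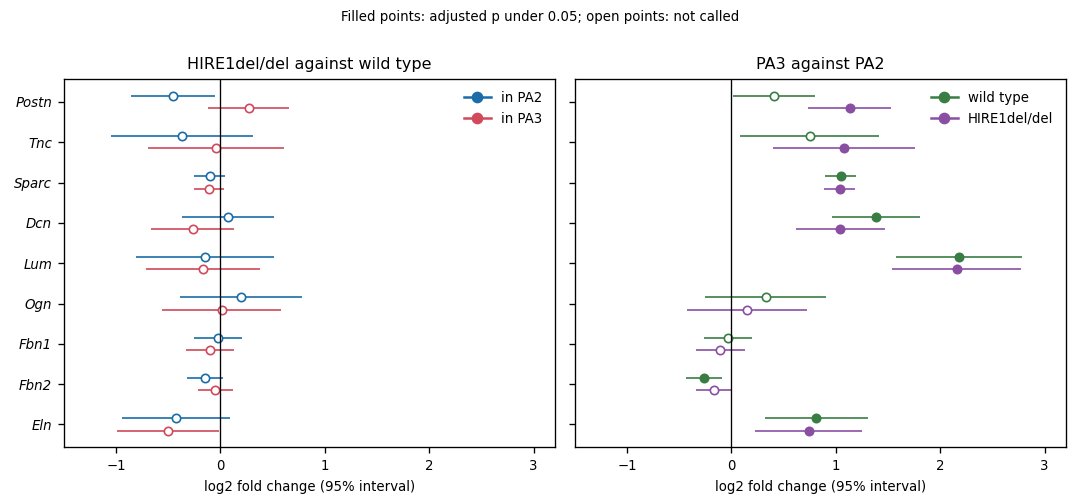
Log2 differences of the 9 tested genes with 95% intervals from the edgeR fit, filled where called, for HIRE1del/del against WT in PA2 and in PA3 and for PA3 against PA2 in each genotype. The genotype differences lie between −0.50 and 0.27, and the arch differences reach 2.18 for Lum.

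Per length, Fbn2 led the group in WT PA2 at 40.1 ± 4.37 RPKM, ahead of Sparc at 31.1 ± 2.69 and Fbn1 at 13.4 ± 1.95 RPKM (SD, n = 3). In WT PA3 Sparc led at 64.4 ± 0.627 RPKM, with Fbn2 at 33.3 ± 2.53 and Fbn1 at 13.1 ± 0.995 RPKM. The ratio of Fbn1 to Fbn2 stayed between 0.315 and 0.422 in the 12 libraries of these 4 groups.

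The arches also differed in what other cells they held. Red-cell markers summed to 1519 to 2391 CPM in WT PA2 and 12329 to 24192 CPM in WT PA3, neuronal markers to 74.0 to 81.9 and 172 to 233 CPM, and crest mesenchyme markers to 1066 to 1186 and 681 to 858 CPM. All 6 red-cell, all 6 neuronal, 4 of 6 epithelial and 4 of 6 endothelial markers were called higher in WT PA3, and 6 of 8 crest mesenchyme markers were called lower. The fibroblast markers summed to 1975 to 2318 CPM and 1902 to 2367 CPM, which overlap, while 5 of the 7 tested were called higher in WT PA3 and 1 lower. The part of these cells in the differences of the matrix genes was not tested.

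Dpt, at most 0.523 CPM, had 11, 11 and 17 counts in WT PA2, 9, 8 and 7 in HIRE1del/del PA2, 3, 2 and 0 in WT PA3 and 2, 7 and 2 in HIRE1del/del PA3. Its counts were higher in PA2, as the levels of Fbn2 were and those of Lum and Dcn were not. With no filter on low counts the WT arch difference was −2.83 (SE 0.712, adjusted p 0.00638) in edgeR, a fitted value that rests on only 3, 2 and 0 counts in WT PA3. In HIRE1del/del the same fit gave −1.20 (adjusted p 0.217), and by genotype −0.54 in PA2 (adjusted p 0.879) and 1.09 in PA3 (adjusted p 0.802).

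The lists of other matrix genes held differences between arches in both directions. In WT 19.1% of all genes tested were called higher in PA3 and 17.4% lower. In WT, 4 of 10 collagen genes were higher in PA3 and 0 lower, with Col1a1 higher by 1.44 (SE 0.186). Of 8 small leucine-rich proteoglycans 2 were higher and 0 lower, Podn among them at 1.31 (SE 0.232). Of 20 elastic fibre genes 8 were higher and 4 lower, and Lox was lower by −2.02 (SE 0.276). Mfap5, a microfibril gene, was higher by 2.17 (SE 0.357). The matricellular and adhesive glycoprotein genes split into 4 higher and 7 lower of 17. Smoc1 was lower by −2.86 (SE 0.246) and Spp1, for osteopontin, higher by 1.20 (SE 0.288). Of the receptors 7 were higher and 6 lower, with Cd44 higher by 2.03 (SE 0.132) and Ddr2, a collagen receptor, lower by −0.70 (SE 0.164). P4ha3 was higher by 2.07 (SE 0.299) and Mmp23 by 0.95 (SE 0.194), and Mmp16 was lower by −0.74 (SE 0.110). Adamts3 was lower by −0.66 (SE 0.180, adjusted p 0.0118), a call lost without WT PA2 replicate 3 at an adjusted p of 0.0685.

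In HIRE1del/del, 18.7% of all genes were called higher in PA3 and 14.7% lower. The same lists gave 5 and 0 collagen genes, 2 and 0 proteoglycans and 8 and 5 elastic fibre genes higher and lower. For the matricellular and adhesive glycoproteins the counts in PA3 were 4 and 7, and for the receptors 7 and 6. Smoc1 was again far lower there, at 20.6 ± 5.00 CPM against 135 ± 16.2 CPM in PA2 (SD, n = 3), a difference of −2.72 (SE 0.242). Lox differed by −2.04 (SE 0.279), Cd44 by 2.10 (SE 0.135), P4ha3 by 2.53 (SE 0.338) and Ltbp2 by 2.15 (SE 0.303). Col1a1 was higher by 1.25 (SE 0.188), Spp1 by 1.63 (SE 0.301), Mmp9 by 1.08 (SE 0.233) and Podn by 0.98 (SE 0.242), and Mrc2 was lower by −0.73 (SE 0.0925), Mmp16 by −0.56 (SE 0.110) and Adamts3 by −0.82 (SE 0.180). These counts stand beside those of WT as values, and no difference between the genotypes was tested from them.

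For each gene, the 2 genes outside the group whose levels ran most like it were found by Pearson r of log2(CPM + 0.5) over the 21 libraries, each table centred on its own WT E10.5 PA2 mean. Sparc ran most like Vim, for vimentin (r 0.996), Eln like Emp2 (r 0.995) and the proteoglycan gene Cspg4 (r 0.993), and Fbn2 like Lrp1 (r 0.986) and the laminin gene Lama2 (r 0.982). Dcn ran with C1ql3 and S1pr1 (r 0.996 each), Lum with Fgf18 (r 0.992) and Mtus1 (r 0.991) and Ogn with Setbp1 and Smarca2 (r 0.995 each). The pairs were Mylip (r 0.992) and Ghr (r 0.991) for Postn, Grik4 and Syne1 (r 0.991 each) for Tnc, Nr4a1 (r 0.994) and Psd3 (r 0.993) for Dpt, and Cacnb1 and Prkce (r 0.994 each) for Fbn1. These are the top of 12857 candidates over points that share libraries and 2 sequencing formats. With 1 CPM added in place of 0.5, 16 of the 20 genes were chosen again.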

How the data were processed

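The authors aligned the reads to GRCm38/mm10 with QuasR and Rhisat2 and deposited un-normalised counts per UCSC known gene, as 1 table for the 9 stage libraries (50 base single-end reads) and 1 for the 12 genotype libraries (paired-end). The sources name both an unstranded kit and a stranded counting setting. Exonic lengths are those of the deposited tables, and gene positions are those of GENCODE M21.

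Rows without a symbol (18 of 24594) were left out of what is named. Genes with a CPM of at least 1 in at least 2 libraries were kept. Each table was fitted with edgeR 4.0.16 (R 4.3.3), using TMM factors, group means and the quasi-likelihood test, two-sided, with Benjamini-Hochberg adjustment over all genes tested and calls at 0.05. All groups of a table shared the estimate of the spread, and contrasts that share a group are not independent. Alternatives were DESeq2 1.42.0, limma-voom 3.58.1, other scaling, filters and call rules, a fit on the contrast's libraries alone, replicate blocks and leaving out each library. The steps were tested on simulated data. Counting intervals are exact at 95% and cover counting error only.

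The genes, the lists, the markers and the tests were chosen with earlier results of these data known. All 10 genes were named. From each other list, the 3 called genes with the largest rise and fall from E10.5 to E14.5, and the largest 1 each way in other contrasts, were taken, beside the neighbours in the Dcn-Lum and Ogn clusters and the 2 genes most like each of the 10. The step difference was added after the data were seen. Promoter sequences are from RefSeq on GRCm38.p6, and those of Dcn, Lum, Fbn2 and Eln are not shown.

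Deviations of PA2 and PA3 libraries of the same genotype and number from their group means correlated at r of 0.213 to 0.382, every pair above 0.1. Those numbers were taken to pair the arches as embryo pools. Libraries that cannot share a pool reached similar values. WT PA2 replicate 1 had r of 0.293 with HIRE1del/del PA3 replicate 2, and E10.5 PA2 replicate 1 had 0.317 with E12.5 pinna replicate 2. The pairing is thus an assumption that r cannot settle. Numbers across stages (r −0.312 to 0.202) and, within an arch, across genotypes (r −0.136 to 0.236) did not pair. Replicates differed by more than counting noise (chi-square per degree of freedom 6.68 to 44.2).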

Additional observations from a re-analysis of the deposited data

How the results depend on the processing

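Calls of the 10 genes held at 10 of 10 in each stage contrast under each alternative of test, scaling, filter, block and left-out library, except that requiring a log2 change of 1 left 6 of 10 for E14.5 against E12.5 pinna and 9 of 10 for E12.5 pinna against E10.5 PA2. That rule also left 3 genes of 5 for PA3 against PA2 in WT and 5 of 6 in HIRE1del/del. It called 8.33% and 8.19% of all genes in those contrasts. Leaving out each library in turn gave 7 to 7 genes for the step difference, 0 to 0 for each genotype contrast and the arch interaction, and 4 to 6 for PA3 against PA2 in WT and in HIRE1del/del. With the replicate number as a block the counts were 10, 10 and 10 for the stages, 7 for the step difference, 0 for each genotype contrast and interaction, and 6 for PA3 against PA2 in either genotype. Of all 13438 genes, that block called 9114, 8680 and 10933 for the stages and 5597 for the step difference. Of all 14383 genes, it called 5615 for PA3 against PA2 in WT and 5156 in HIRE1del/del. The replicate block by embryo pool gave 1 for the interaction, Postn, where the fit without it gave 0, and 7 in WT against 5. Of all genes it called 0.181% for the interaction and 42.4% for PA3 against PA2 in WT. It changed no other call count of the 10 genes.

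Signs turned only for log2 differences that were not called, and the cause was not tested. The Lum interaction of 0.02 became −0.10 in limma-voom, −0.016 with the replicate block and −0.0316 with the block by embryo pool. Ogn by genotype in PA3, 0.01, became −0.0457 in limma-voom, −0.016 with the replicate block and −0.0058 with total counts only. With libraries left out, the ranges that crossed 0 were, by genotype in PA2, −0.017 to 0.16 for Dcn, −0.14 to 0.046 for Fbn1 and −0.52 to 0.10 for Lum. By genotype in PA3 they were −0.11 to 0.0056 for Fbn2, −0.32 to 0.15 for Lum, −0.40 to 0.20 for Ogn and −0.44 to 0.25 for Tnc. For the interaction they were −0.14 to 0.26 for Eln, −0.041 to 0.15 for Fbn1, −0.35 to 0.27 for Lum, −0.060 to 0.081 for Sparc and −0.61 to 0.069 for Tnc. PA3 against PA2 crossed 0 for Fbn1 in WT (−0.15 to 0.039) and for Ogn in HIRE1del/del (−0.26 to 0.33), and the step difference for Dpt (−0.48 to 0.14) and Fbn2 (−0.15 to 0.022). A count of 3 was worth 0.0631 to 0.117 CPM by library, which limits Ogn and Dpt at E10.5.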

Other observations

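WT E10.5 PA2 was sequenced in both series, and its levels differed between them. The libraries of the stage series averaged 0.199 CPM for Ogn, 65.3 CPM for Sparc and 784 CPM for Fbn2, and those of the genotype series averaged 2.00, 118 and 529 CPM. Read format and embryos differ between the series, and sorting is stated for the stage series alone. These cannot be told apart, so no test was made across them.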
